A study of Rattus norvegicus with 29 samples.

Results

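Insr, Lepr, Igf1r, Irs1, Irs2, Pik3r1, Akt1, Akt2, Foxo1 and Foxo3 encode the receptors, adaptors, kinases and transcription factors through which insulin, insulin-like growth factor and leptin act on cells. Their probes were found by gene name on an Agilent rat whole-genome array, with the older names Foxo1a and Foxo3a accepted and letter case ignored, which gave 13 probes for these 10 of the 35660 genes named on the array. RNA of peripheral blood mononuclear cells (PBMC), the lymphocytes and monocytes recovered from heparinised saphenous vein blood over a Ficoll gradient, was measured in 29 male Wistar rats aged 6 months with 1 array per rat. Cafeteria rats, described by the submitters as obese, had been offered an energy-dense, fatty cafeteria diet beside chow for 4 months and control rats chow alone. Within each diet, fed rats ate freely, fasted rats went 14 h without food, and refed rats were fasted and then given free access to food for 6 h. The cafeteria fed, cafeteria fasted, cafeteria refed, control fasted and control refed groups held 5 rats each and the control fed group 4, because the submitters had dropped 1 control sample for its low RNA yield. Each rat's RNA was labelled with Cy5 and hybridised beside Cy3-labelled RNA pooled from all groups, so every value below is a log2 ratio of the rat over that pool, which shows relative differences between rats for 1 probe and gives no order of abundance between genes. A gene passed the test when its adjusted p in limma, a linear model fitted across all 24226 genes tested, was under 0.05 after Benjamini-Hochberg adjustment.

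Insulin and IGF-1 bind receptor tyrosine kinases (Insr, Igf1r) that phosphorylate the insulin receptor substrates Irs1 and Irs2. These adaptors recruit PI3-kinase, whose regulatory subunit p85 alpha is made by Pik3r1, and the lipid it forms brings the kinases Akt1 and Akt2 to the membrane, where active Akt phosphorylates Foxo1 and Foxo3 and keeps them out of the nucleus. Leptin, a hormone of fat cells, acts through the cytokine receptor Lepr and JAK-STAT signalling; in lymphocytes FOXO factors are known for holding cells in quiescence, and in mouse liver they are known to raise Irs2 transcription during fasting.

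The arrays and the cell preparation set the following limits. On each array 53.0% to 66.6% of probes were well above background, and the correlation of log2 ratios between arrays ranged from -0.281 to 0.605. The files named 8 slides and 2 runs of the image-extraction software, of 14 and 15 arrays, and both runs held rats of all 6 groups. The defining markers of the labelled cell type were present: 7 of 8 T cell, 5 of 7 B cell, 7 of 7 natural killer and 7 of 7 monocyte markers were tested, each well above background on all 29 arrays. Markers of other blood cells were also measured, among them 8 of 14 platelet, 6 of 8 neutrophil and 6 of 8 erythroid genes. The mean log2 ratio of the platelet markers was -0.83 ± 0.42 in control refed rats and 0.71 ± 0.15 in control fasted rats (SD, n = 5 each), with ranges of -1.40 to -0.25 and 0.46 to 0.83, and 8 of 8 platelet markers fell in that comparison. In cafeteria rats the platelet mean was -0.52 ± 0.87 after refeeding and 0.033 ± 0.29 after fasting (SD, n = 5 each), and 0 of 8 markers passed. In such bulk samples, fewer cells of a type and less RNA per cell cannot be told apart.

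Not all of the 10 genes could be measured in these cells. Lepr, the leptin receptor, is read by a probe at chr5:122469444-122470551 (plus strand) in the rn4 rat genome build named in the files. These coordinates span 1108 bases from end to end, and the length of the probe itself is not given. The Cy5 signal of the probe was 1.15 to 1.67 times its local background. The probe was spotted 10 times per array and was not well above background on any of the 29 arrays. Irs1, the adaptor prominent in muscle and fat insulin signalling, has its probe at chr9:81585685-81585744 (minus strand), also with 10 spots, and reached 1.13 to 1.48 times its background, again on no array well above it. An annotation of rn4 was not used here, so which part of each transcript a probe reads is not given. These 2 genes have a bound and no level in any group, and no comparison is given for them. Insr, the insulin receptor, read at chr12:3087143-3087201 (plus strand), lay at 1.29 to 2.10 times its background and was well above it on 19 arrays, namely 3 of 5 cafeteria fed, 4 of 5 cafeteria fasted, 4 of 5 cafeteria refed, 3 of 4 control fed, 1 of 5 control fasted and 4 of 5 control refed rats. It therefore entered the test with values near the floor of the array in many rats. The other 7 genes were measured on all 29 arrays: Igf1r, the IGF-1 receptor, at 5.55 to 12.9 times background, the kinases Akt1 at 17.6 to 46.4 and Akt2 at 4.06 to 9.84 times, Pik3r1 at 4.63 to 11.1, Foxo1 at 17.2 to 45.3, Foxo3 at 2.59 to 5.17 and the brightest Irs2 probe at 16.6 to 56.3 times. No probe of these genes was saturated on any array.

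**Figure D1:**
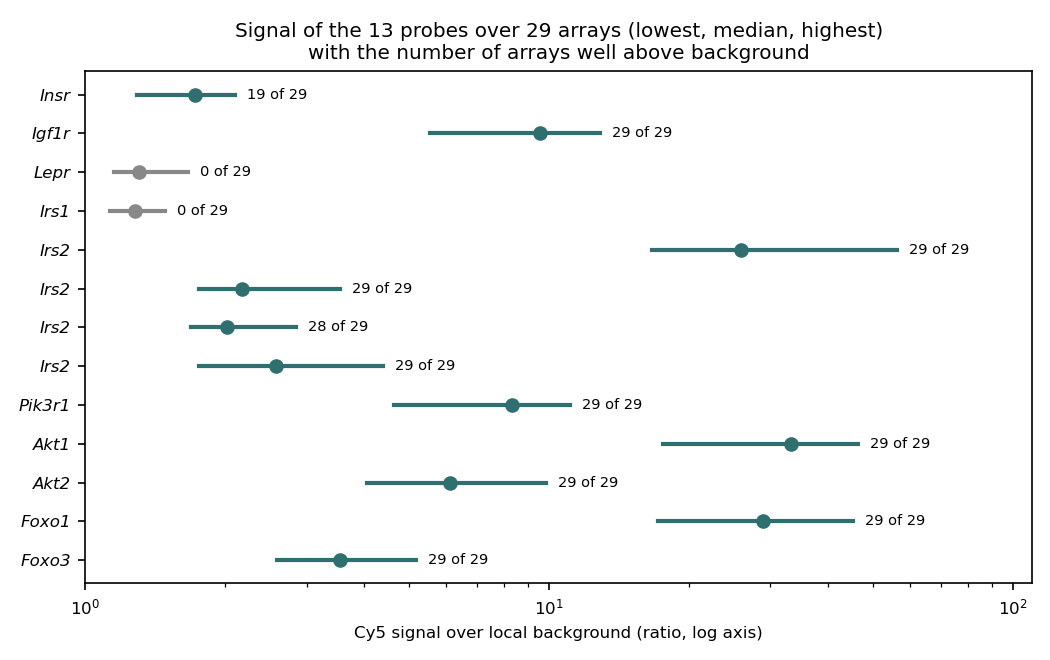
Cy5 signal over local background (log axis) of the 13 probes of the 10 genes over the 29 arrays, with a point at the median, a line from the lowest to the highest array and the number of arrays on which the scanner software called the probe well above background. The Lepr and Irs1 probes (grey) stay at or below 1.67 times background and were called on 0 of 29 arrays, and Insr was called on 19.

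Among the promoters that RefSeq gives for the GRCr8 rat assembly, 8 of the 10 genes had an entry, and the 250 bases before the start of Pik3r1, Foxo1 and Insr are shown. Irs2 and Foxo3 had no entry, so their promoters were not searched. Among the genes with an entry, Pik3r1 and Foxo1 are those whose values are set out below for every rat. Insr is the one whose window held a match to the FOXO motif. The windows lie at chr2:34697661-34697910 (minus strand), chr2:138462724-138462973 (plus strand) and chr12:6128804-6129053 (minus strand), each written 5′ to 3′ on the gene's own strand.
Pik3r1: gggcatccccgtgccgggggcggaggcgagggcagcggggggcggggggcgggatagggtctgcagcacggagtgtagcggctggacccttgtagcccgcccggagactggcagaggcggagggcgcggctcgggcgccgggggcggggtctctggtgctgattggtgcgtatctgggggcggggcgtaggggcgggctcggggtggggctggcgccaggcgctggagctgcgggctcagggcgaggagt
Foxo1: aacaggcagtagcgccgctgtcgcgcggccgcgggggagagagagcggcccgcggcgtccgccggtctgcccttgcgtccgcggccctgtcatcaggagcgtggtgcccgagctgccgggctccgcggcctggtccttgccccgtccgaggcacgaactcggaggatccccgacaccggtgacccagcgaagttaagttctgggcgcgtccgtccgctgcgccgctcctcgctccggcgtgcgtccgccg
Insr: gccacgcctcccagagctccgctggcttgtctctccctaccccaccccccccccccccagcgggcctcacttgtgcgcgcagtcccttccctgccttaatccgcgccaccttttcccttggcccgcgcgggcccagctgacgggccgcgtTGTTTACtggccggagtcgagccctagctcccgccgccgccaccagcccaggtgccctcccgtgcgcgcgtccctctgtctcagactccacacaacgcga

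Capitals mark TGTTTAC, the reverse complement of the core FOXO motif GTAAACA. That motif, searched on both strands, was in 3.21% of the 33469 rat promoter windows of the same length. The insulin response motif CAAAACA (5.46% of windows), the CREB site TGACGTCA (1.59%) and the SREBP site TCACNCCAC (0.974%) had no match in the 8 windows, and the E-box CACGTG (5.59%) had 1, in Igf1r. The 250 bases were 77.2% G and C in Pik3r1, 74.4% in Foxo1 and 71.2% in Insr, against a median of 51.2% over all windows. A match is a string of letters in this window and does not show binding.

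Irs2, the insulin receptor substrate through which much of the insulin signal passes in liver and islets, was 1.41-fold higher in fasted than in fed rats and 1.38-fold lower in refed than in fasted rats when averaged over both diets. Within a single diet, its rise with fasting passed in cafeteria rats and its fall with refeeding in control rats. In cafeteria rats its log2 ratios were -0.049, -0.035, -0.15, 0.14 and 0.10 in the 5 fed rats. They were 0.39, 0.76, 0.39, 0.96 and 0.47 in the 5 fasted rats. Refed cafeteria rats had -0.057, 0.10, 0.38, 0.076 and 0.066. Every fasted cafeteria rat lay above every fed and every refed one, with 1 refed rat close to the lowest fasted rats. In control rats Irs2 stood at -0.085, -0.14, 0.34 and -0.026 in the 4 fed rats. Fasted control rats had 0.41, 0.20, 0.50, 0.30 and 0.73. Refed control rats had 0.19, -0.11, 0.19, -0.45 and 0.054. Here 1 fed rat overlapped the fasted group, and the refed and fasted rats did not overlap.

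The fasted group averaged 0.60 ± 0.26 and the fed group 0.0011 ± 0.12 in cafeteria rats (SD, n = 5 each), a fasting change of 0.59 ± 0.13 (standard error; 95% interval 0.33 to 0.86), or 1.51-fold, which passed the limma test at adjusted p = 0.0233. Irs2 was thus 1 of the 8 tested genes that passed in this comparison, against 0.859% of all 24226 genes, and groups as separate as these, with the fasted one higher, were found for 1.36% of genes. In control rats the fasted mean was 0.43 ± 0.20 (n = 5) and the fed mean 0.023 ± 0.22 (n = 4), and the change of 0.40 ± 0.13 (0.13 to 0.68) did not pass, at limma adjusted p = 0.201. No tested gene of the 8 passed there, against 0.177% of all genes; 2 of the 8, Irs2 and Pik3r1, had an unadjusted p under 0.05, as had 2811 of all genes. The fasting change of Irs2 did not differ detectably between the diets: cafeteria minus control was 0.19 ± 0.18 (-0.19 to 0.57; limma adjusted p = 0.9998).

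After refeeding, Irs2 averaged -0.024 ± 0.27 in control refed rats and 0.43 ± 0.20 in control fasted rats (SD, n = 5 each), a change of -0.45 ± 0.13 (-0.71 to -0.19) that passed at limma adjusted p = 0.0226. It was 1 of 2 genes of the 8 that passed in control rats, with Pik3r1, where 9.34% of all genes passed, and 6.1% of genes had non-overlapping groups with the refed one lower. In cafeteria rats the refed mean was 0.11 ± 0.16 against 0.60 ± 0.26 in fasted rats, and the change of -0.48 ± 0.13 (-0.74 to -0.22) missed the threshold at limma adjusted p = 0.0534, although the groups did not overlap (1.32% of genes). Averaged over both diets, a comparison added after the values had been seen, Irs2 was 1.41-fold higher in fasted than in fed rats (0.50 ± 0.092, 0.31 to 0.69, limma adjusted p = 0.00221) and 1.38-fold lower in refed than in fasted rats (-0.47 ± 0.090, -0.65 to -0.28, adjusted p = 0.00107). The fasting and refeeding comparisons share the fasted rats, so each gene's values in them are not independent. Refed and fed rats compared directly gave 0.11 ± 0.13 (-0.15 to 0.37) in cafeteria and -0.047 ± 0.13 (-0.32 to 0.23) in control rats, both with intervals that include 0.

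Within the runs of the extraction software, fasted minus fed was 0.75 (1 against 4 rats) and 0.59 (4 against 1) in cafeteria rats, and 0.41 (4 against 2) and 0.63 (1 against 2) in control rats. Refed minus fasted was -0.82 (1 against 1) and -0.40 (4 against 4) in cafeteria rats, and -0.31 (2 against 4) and -0.80 (3 against 1) in control rats. All 8 differences had the sign of the pooled one, but 4 of 5 cafeteria fed arrays were in 1 run and 4 of 5 cafeteria fasted arrays in the other, and the cafeteria fasting call ended with the extraction run or the slide as a fixed term, at 0.56 and 0.52 (limma adjusted p = 0.0917 and 0.181). Over 11 alternatives this call was kept in 5, with changes of 0.52 to 0.65, and the control refeeding call in 5 of 11, with changes of -0.54 to -0.28, the smallest in the authors' table (limma adjusted p = 0.182). The calls in single diets also rested on individual rats: the cafeteria fasting call ended without cafeteria fasted rat 5 or 11 (limma adjusted p = 0.0735 and 0.112) or cafeteria fed rat 1 or 7 (0.0754 and 0.0768), and the control refeeding call without control fasted rat 8 or 14 (0.0521 and 0.0787) or control refed rat 6 or 12 (0.0553 and 0.0896). The changes averaged over both diets passed whichever rat was left out, with changes of 0.45 to 0.55 for fasting and -0.50 to -0.41 for refeeding. They missed it with median centring of the arrays in place of loess, at 0.57 (limma adjusted p = 0.181) and -0.45 (0.117). The platelet marker mean differed by 0.17 in cafeteria and 0.53 in control rats for fasted minus fed, and with that mean as a covariate Irs2 passed in both averaged comparisons, at 0.51 and -0.49 (limma adjusted p = 0.00383 and 0.0301). In the order of group means, cafeteria fasted and then control fasted rats stood highest with a gap to the rest beyond the spread within groups, and cafeteria refed, control fed, cafeteria fed and control refed rats followed with neighbours that did not differ beyond their spread.

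The array held 4 probes for Irs2, all on the plus strand of chromosome 16 in rn4. The brightest, from which the values above come, lies at chr16:83403814-83403873, and the others lie upstream at chr16:83383275-83383334, chr16:83382695-83382754 and chr16:83381868-83381927, with median signals of 2.58, 2.18 and 2.02 times background against 25.9 times for the brightest. Averaged over both diets, refed minus fasted was -0.19 ± 0.046, -0.075 ± 0.055 and -0.12 ± 0.044 for the 3 dimmer probes in the order given, and fasted minus fed was 0.15 ± 0.048, 0.065 ± 0.057 and 0.032 ± 0.045. All 6 changes had the direction of the brightest probe and were smaller, and of them the refeeding change of the probe at chr16:83383275-83383334 passed over all 28193 probes (limma adjusted p = 0.00519). These values include an offset of 50 added to both channels, which by its construction draws the ratio of a dim probe towards 0. From the scanner's processed signals, with no offset, the dimmer probes gave -0.58, -0.37 and -0.48 for refeeding and 0.60, 0.42 and 0.22 for fasting, against -0.49 and 0.55 for the brightest probe. On that scale the changes of the 4 probes had the same sign, and 3 of them passed for refeeding and 2 for fasting; the limma adjusted p was 0.0717 for the refeeding change of the probe starting at 83382695, and 0.0956 and 0.555 for the fasting changes of this probe and of the one farthest upstream.

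**Figure D2:**
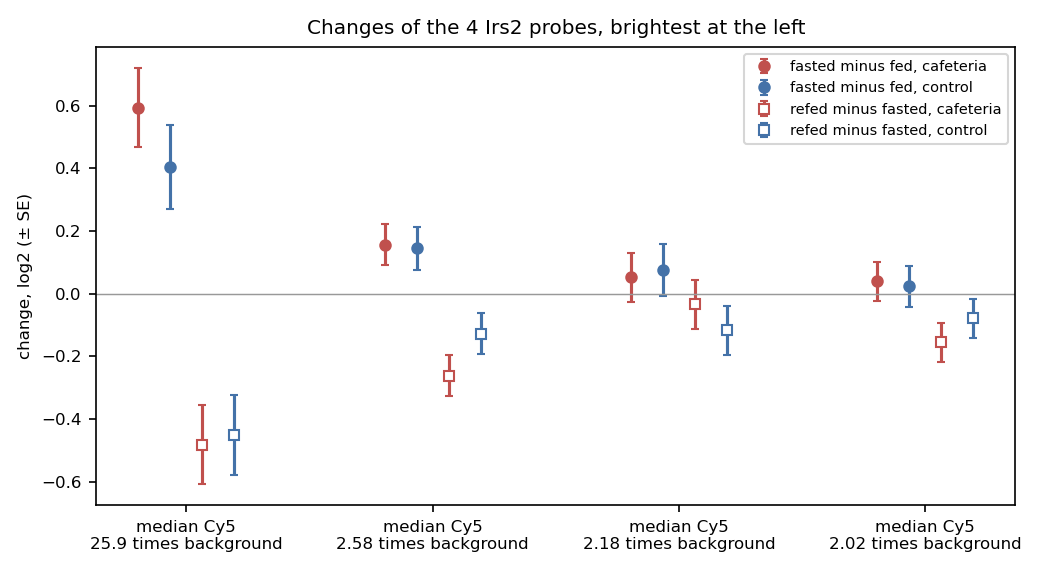
Changes (log2, ± standard error) of the 4 Irs2 probes with fasting (filled circles) and refeeding (open squares) in cafeteria and control rats, with the probes set out by their median Cy5 signal. The brightest probe changes by 0.59 and 0.40 with fasting and the others by less, in the same direction, on this scale with its offset of 50.

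Pik3r1, which makes the p85 alpha regulatory subunit that stabilises PI3-kinase and docks it on the Irs proteins, was 1.21-fold higher in fasted than in fed rats and 1.25-fold lower in refed than in fasted rats, averaged over both diets. Its probe lies at chr2:32606419-32606478 (minus strand) in rn4, and its promoter is printed above. Cafeteria rats had log2 ratios of -0.076, -0.029, 0.0097, -0.020 and -0.10 when fed. Fasted cafeteria rats had 0.078, 0.24, 0.22, 0.28 and 0.38. Refed cafeteria rats had -0.040, -0.19, -0.032, 0.013 and -0.43. The fasted group lay wholly above both others, and the fed and refed groups overlapped. Among all genes, 1.36% had fasted cafeteria rats wholly above fed ones, and 1.32% had refed cafeteria rats wholly below fasted ones. In control rats the values were 0.25, -0.0049, 0.018 and 0.041 in the 4 fed rats. They were 0.24, 0.53, 0.35, 0.22 and 0.42 in the 5 fasted rats. Refed control rats had 0.26, 0.11, -0.010, -0.040 and 0.072. 1 fed rat and 1 refed rat reached into the lower end of the fasted range.

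In cafeteria rats Pik3r1 fell after refeeding by 0.38 on the log2 scale (standard error 0.078; 95% interval of the change -0.54 to -0.22; limma adjusted p = 0.0137), with means of -0.14 ± 0.18 in refed and 0.24 ± 0.11 in fasted rats (SD, n = 5 each). It was the 1 gene of the 8 that passed in this comparison, against 1.42% of all genes. The refed control rats averaged 0.079 ± 0.12 and the fasted control rats 0.35 ± 0.13, and the change of -0.27 ± 0.078 (-0.43 to -0.11) passed at limma adjusted p = 0.0263. Fasting gave 0.28 ± 0.078 (0.12 to 0.44) in cafeteria and 0.27 ± 0.083 (0.10 to 0.45) in control rats, 1.22-fold and 1.21-fold, and passed in neither (limma adjusted p = 0.0808 and 0.158). Averaged over both diets, it was 0.28 ± 0.057 (adjusted p = 0.00491 in limma) for fasted minus fed and -0.32 ± 0.055 (adjusted p = 0.000457) for refed minus fasted. With Irs2, 2 of the 8 genes passed in each of these averaged comparisons, against 4.11% of all genes for fasting and 13.5% for refeeding. Among the 8 genes the median fasting change was 0.074 and the median refeeding change -0.11, beside 0.0054 and 0.0024 over all genes. By group mean, control fasted and cafeteria fasted rats stood highest for Pik3r1 and did not differ beyond their spread. After a gap beyond the spread came control refed and control fed rats, and then cafeteria fed and cafeteria refed rats. The gap between control fed and cafeteria fed rats (0.1194) barely exceeded the SD of the control fed group (0.1178), and these 2 groups overlapped.

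Within the runs of the extraction software, Pik3r1 refed minus fasted was -0.28 (1 against 1 rat) and -0.40 (4 against 4) in cafeteria rats and -0.15 (2 against 4) and -0.41 (3 against 1) in control rats, all of the pooled sign. The cafeteria call ended without cafeteria fasted rat 11 or cafeteria refed rat 15 (limma adjusted p = 0.0544 and 0.0515), and the control call without control fasted rat 5 or 14 (0.0802 and 0.0653) or control refed rat 9 or 12 (0.0717 and 0.0785). Over 11 alternatives the control call was kept in 4. The control change was smaller under other processing, at -0.061 from the Cy5 channel alone (adjusted p = 0.71) and -0.066 from the authors' normalized table (adjusted p = 0.626), both with limma. With the mean of the platelet markers entered as a covariate, the control refeeding changes were -0.49 for Irs2 (limma adjusted p = 0.22) and -0.37 for Pik3r1 (0.134), at least as large as without it but no longer past the threshold.

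**Figure D3:**
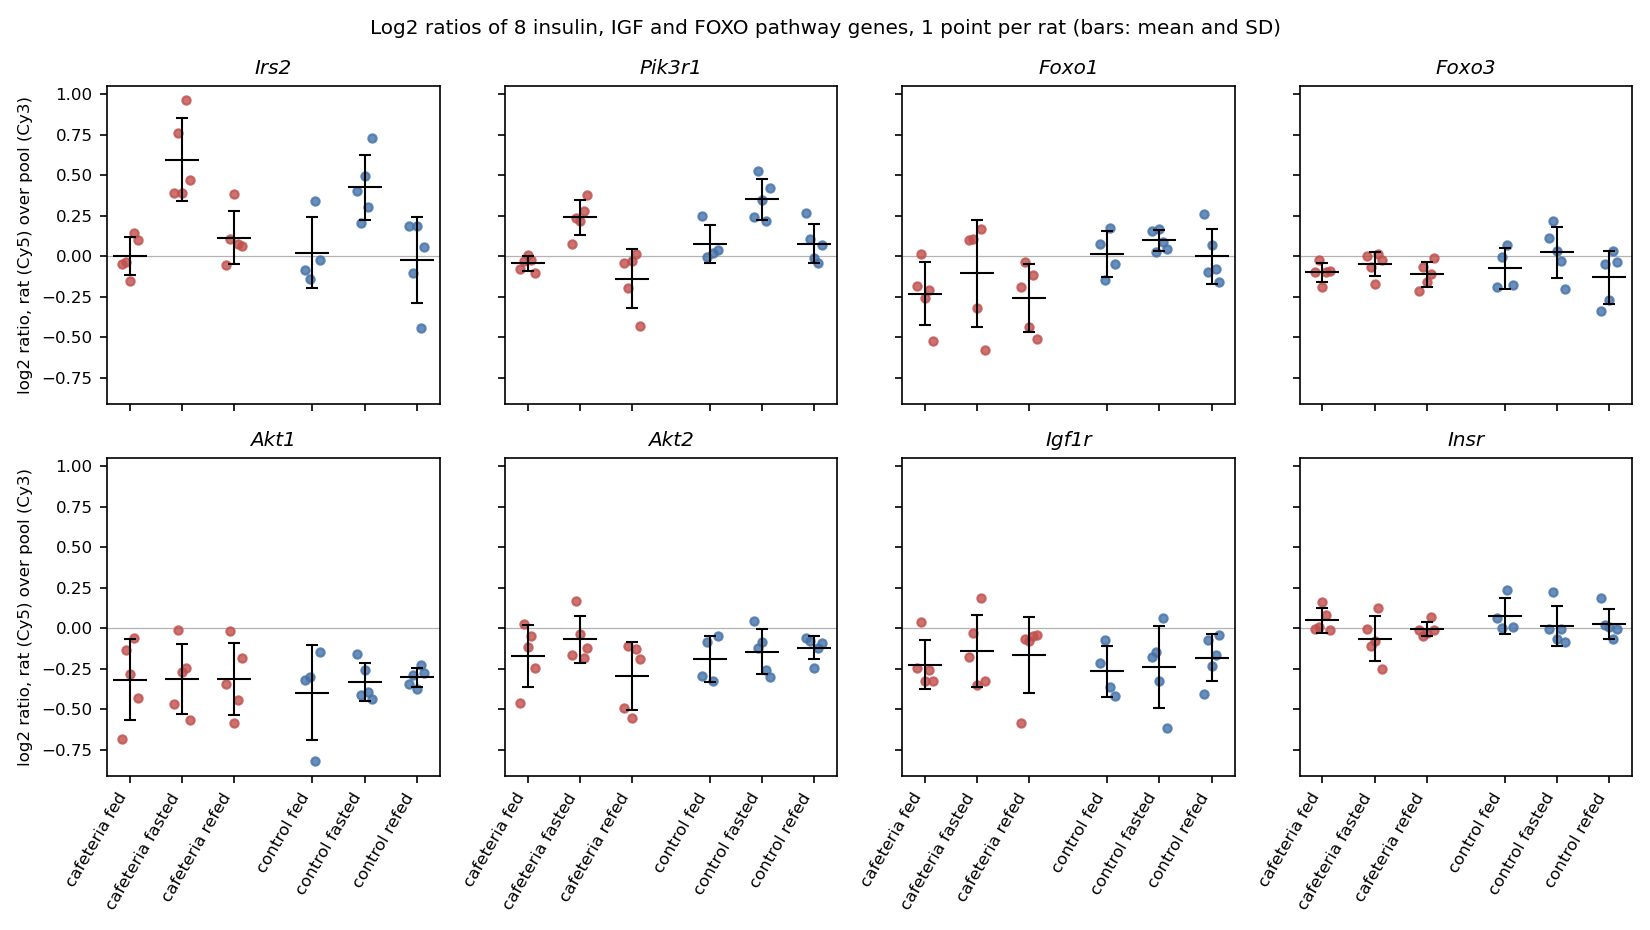
Log2 ratio of rat over pool for the 8 tested genes (panels), with 1 point per rat, the mean and the SD for each of the 6 groups. Irs2 averages 0.60 in cafeteria fasted and 0.43 in control fasted rats with every other group at 0.11 or below, while Akt1 and Igf1r show overlapping groups.

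**Figure D4:**
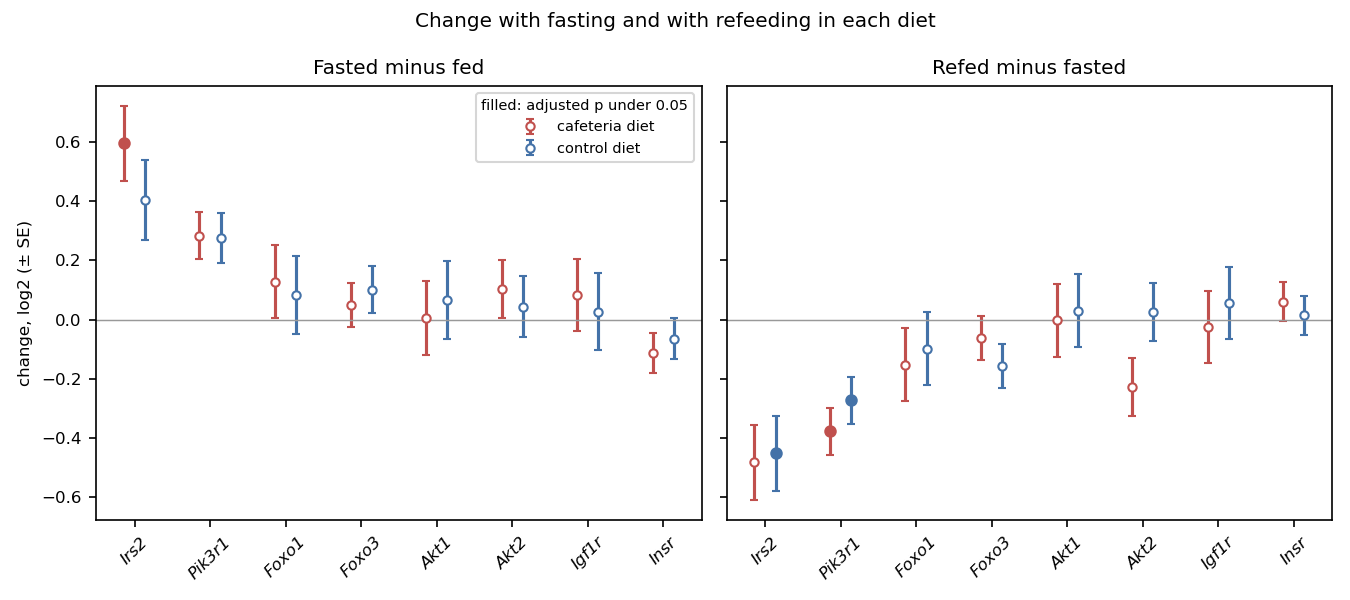
Fasting (fasted minus fed, left) and refeeding (refed minus fasted, right) changes of the 8 tested genes in log2 units, ± standard error, for cafeteria and control rats; filled circles passed at adjusted p under 0.05. Irs2 and Pik3r1 lie above 0 for fasting and below 0 for refeeding in both diets, with filled circles for Irs2 in 2 and Pik3r1 in 2 of the 4 comparisons.

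The receptors that were measurable did not change past the threshold with feeding state. Insr changed by -0.11 ± 0.066 with fasting in cafeteria rats and -0.064 ± 0.070 in control rats, and by 0.060 ± 0.066 and 0.014 ± 0.066 with refeeding (standard errors), with limma adjusted p between 0.621 and 0.936. Igf1r, which binds IGF-1 and is read at chr1:122989150-122989209 (plus strand), gave 0.084 ± 0.12 and 0.026 ± 0.13 with fasting and -0.024 ± 0.12 and 0.057 ± 0.12 with refeeding, in cafeteria and control rats in that order. The 95% interval of the fasting change averaged over both diets was -0.13 to 0.24 for Igf1r and -0.19 to 0.011 for Insr. Both lie below the interval of Irs2 (0.31 to 0.69), but for Insr, whose probe was dim, the offset of 50 draws ratios towards 0. Over 10 alternatives the averaged fasting change of Insr ran from -0.46 to -0.077 and its averaged refeeding change from 0.0048 to 0.65. It passed in none of them (lowest limma adjusted p = 0.362 for fasting and 0.0717 for refeeding), so the size of its changes depended on the processing. Over the 29 rats Insr ranged from -0.25 to 0.23 and Igf1r from -0.61 to 0.19, with overlapping groups.

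Akt1 and Akt2, the kinases downstream of PI3-kinase, are read at chr6:137641146-137641205 (minus strand) and chr1:82725226-82725285 (plus strand). Akt1 ranged from -0.82 to -0.0093 over the 29 rats, and its group means differed by no more than the spread within groups, with averaged changes of 0.035 ± 0.090 for fasting (-0.15 to 0.22) and 0.014 ± 0.088 for refeeding (-0.17 to 0.19). Akt2 had -0.49, -0.11, -0.55, -0.13 and -0.19 in cafeteria refed rats and -0.17, 0.17, -0.033, -0.18 and -0.12 in cafeteria fasted rats. These groups overlapped, and the change of -0.23 ± 0.10 did not pass (limma adjusted p = 0.296), while in control rats it was 0.025 ± 0.10. The difference between the diets in this change, -0.25 ± 0.14, had a limma adjusted p of 0.702. Across rats of the same group the 2 kinases moved together: the correlation of their deviations from group means was r = 0.765 over 29 rats (permutation p = 4e-05, adjusted over 92 relations 0.00368), with rho = 0.738 (permutation p = 0.00015, adjusted 0.0138). It was 0.724 without the 2 rats farthest from the median of Akt1, and 0.838 and 0.706 within the extraction runs of 14 and 15 arrays. This was 1 of 28 pairs among the 8 genes with an adjusted permutation p under 0.05. The 92 relations also set each gene against 8 cell type marker means, where Akt1 with the monocyte mean (r = 0.684, adjusted permutation p = 0.029; rho = 0.649, 0.0546) and Igf1r with the erythroid mean (r = 0.616, 0.0439; rho = 0.599, 0.0546) passed by Pearson's r and not by Spearman's rho. Without the 2 rats farthest from the median of the gene they were 0.587 and 0.520; within the extraction runs they were 0.643 and 0.816 for Akt1 and 0.701 and 0.514 for Igf1r. Pik3r1 and the natural killer mean had r = 0.615 with an adjusted permutation p of 0.0638. What these shared deviations reflect was not tested.

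Foxo1 and Foxo3, the transcription factors that Akt keeps out of the nucleus, were measured at the level of their RNA, which does not report their phosphorylation or location. Foxo1, read at chr2:141201740-141201799 (plus strand), averaged lower in cafeteria than in control rats in each feeding state, by amounts that did not pass the test. Fed rats had -0.18, 0.015, -0.26, -0.21 and -0.53 on the cafeteria diet and 0.076, -0.15, 0.18 and -0.048 on chow. Fasted rats had 0.10, 0.10, -0.32, 0.17 and -0.58 on the cafeteria diet and 0.16, 0.027, 0.17, 0.088 and 0.043 on chow. Refed rats had -0.19, -0.035, -0.44, -0.11 and -0.51 on the cafeteria diet and 0.26, -0.10, 0.070, -0.078 and -0.16 on chow. In each feeding state the lowest values were from cafeteria rats, and the groups overlapped. Averaged over the 3 feeding states, cafeteria minus control was -0.23 ± 0.073 (-0.38 to -0.085), 1.18-fold lower, which did not pass at limma adjusted p = 0.0788. Pik3r1 gave -0.15 ± 0.046 (-0.24 to -0.054; adjusted p = 0.0792 in limma), and Irs2 0.095 ± 0.075 (adjusted p = 0.60). No gene of the 8 passed in this comparison, against 3.24% of all genes, and 2 of the 8 had an unadjusted p under 0.05, as had 3678 genes in all. With the mean of the platelet markers entered as a covariate both passed, at adjusted p = 0.0241 for Foxo1 and 0.0413 for Pik3r1 in limma. This was the only 1 of 11 alternatives in which either passed, and in the others the limma adjusted p reached 0.717 for Foxo1 and 0.708 for Pik3r1. Within the extraction runs, the Foxo1 difference was -0.31 (4 cafeteria against 2 control rats) and 0.0019 (1 against 2) in fed, -0.0066 (1 against 4) and -0.20 (4 against 1) in fasted and -0.27 (1 against 2) and -0.22 (4 against 3) in refed rats. The values near 0, in 1 run of the fed and in 1 run of the fasted rats, each rest on 1 cafeteria rat.

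Diet differences within a single feeding state passed for no gene of the 8, against 0.00826% of all genes in fed, 0.83% in fasted and 0.223% in refed rats. At an unadjusted p under 0.05 the counts were 0 of the 8 in fed, 0 in fasted and 2 in refed rats, namely Pik3r1 (-0.22 ± 0.078, limma adjusted p = 0.369) and Foxo1 (-0.26 ± 0.12, 0.62), beside 1095, 3585 and 1937 of all genes. Foxo3, which shares targets with Foxo1 and is read at chr20:46185033-46185092 (minus strand), differed between the diets by -0.027 ± 0.044. In control rats it was -0.13 ± 0.16 after refeeding and 0.026 ± 0.16 after fasting (SD, n = 5 each), a change of -0.16 ± 0.074 that did not pass (limma adjusted p = 0.211). This change passed in 3 of 11 alternatives: -0.21 with slide as a fixed term, -0.24 from Cy5 alone and -0.42 from processed signals (limma adjusted p = 0.0157, 0.0432 and 0.033), while with the platelet covariate it was -0.049 (0.871). Averaged over both diets, Foxo3 refed minus fasted was -0.11 ± 0.053 (limma adjusted p = 0.185), and the same 3 alternatives gave -0.15, -0.20 and -0.31, which passed (adjusted p = 0.00809, 0.0122 and 0.0176). In cafeteria rats the refeeding change of Foxo3 was -0.062 ± 0.074, and those of Foxo1 were -0.15 ± 0.12 in cafeteria and -0.10 ± 0.12 in control rats. Refed and fed rats differed for no gene of the 8 by limma, with 0 of the 8 at an unadjusted p under 0.05 in either diet; 0 of 24226 genes passed (0%), and 1032 in cafeteria and 1418 in control rats had an unadjusted p under 0.05. The diet by fasting and diet by refeeding interactions likewise passed for 0 of the 8 and for 0% of all genes in limma, with 774 and 1812 genes at an unadjusted p under 0.05 and none of the 8 among them.

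**Figure D5:**
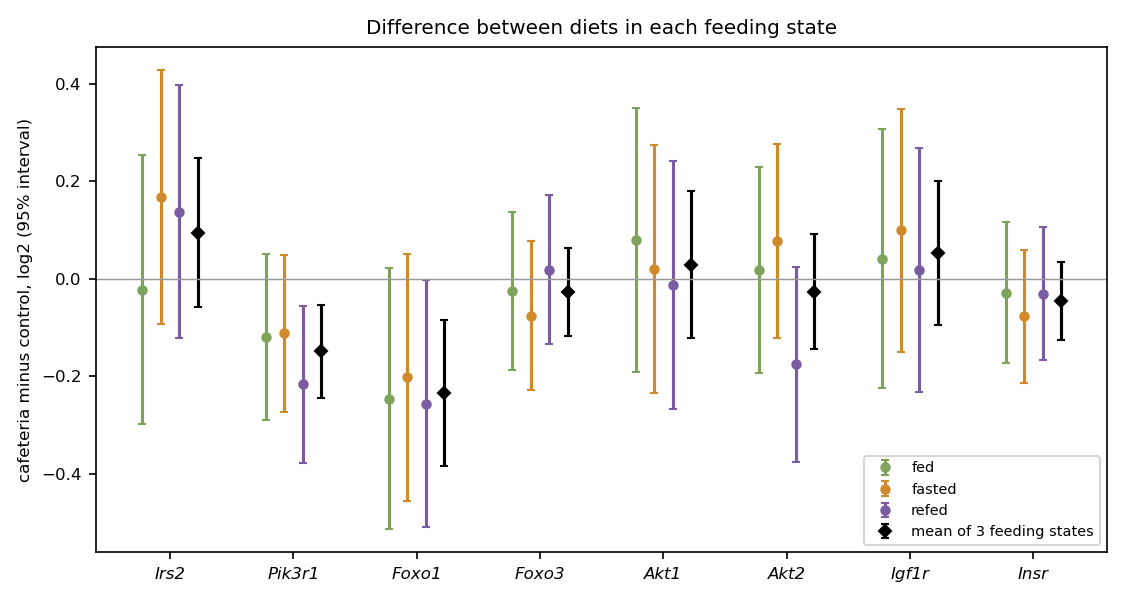
Cafeteria minus control differences of the 8 tested genes in log2 units with 95% intervals, in fed, fasted and refed rats and averaged over the 3 states. No difference passed the test; the averaged differences of Foxo1 (-0.23) and Pik3r1 (-0.15) have intervals below 0.

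Genes of the wider pathways were counted in 3 lists that leave out the 10 genes: insulin and IGF signalling (39 of 45 tested), leptin and JAK-STAT signalling (20 of 22) and FOXO family members, regulators and targets (40 of 46). The lists were chosen with earlier results of these data known. Their shares, here and below, are therefore descriptions beside the share of all genes and no test of a pathway. In cafeteria rats, 4 FOXO-list genes rose with fasting and 1 fell, 5 of 40 or 12.5%, beside the 0.859% of all genes. Those that rose were the cell cycle inhibitor Cdkn1a (0.96 ± 0.20, limma adjusted p = 0.0216), the thioredoxin inhibitor Txnip (0.77 ± 0.17, 0.0268), the stress gene Gadd45a (0.52 ± 0.12, 0.0296) and Sgk1 (0.90 ± 0.22, 0.0443), a kinase that, like Akt, phosphorylates FOXO proteins. The transcriptional repressor Bcl6 fell (-0.68 ± 0.15, 0.0325). In control rats Bcl6 was the 1 gene of the list that passed with fasting (-1.05 ± 0.16, limma adjusted p = 0.00402), 2.5% of 40 against 0.177% of all genes. In the diet by fasting interaction 0 of 40 genes of the list passed, against 0% of all genes. The list's median fasting change was 0.036 in cafeteria and 0.032 in control rats, against 0.0045 and 0.0043 over all genes. The same 5 cafeteria genes passed with the mean of the platelet markers entered as a covariate. With median centring of the arrays 0 of all genes passed for fasting in cafeteria rats, so none of the 5 did. Of all genes, 208 passed as reported, 22 with extraction run as a term and 1 with slide as a fixed term. With slide, at most 1 of the 5 list genes can therefore have passed. Which of the 5 passed under these settings is not given here. Of 5 arrays in each group, 4 cafeteria fed arrays were in 1 extraction run and 4 cafeteria fasted arrays in the other.

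Refeeding in cafeteria rats gave 1 FOXO-list gene higher, Bcl6 (0.86 ± 0.15), and 2 lower, Cdkn1a (-0.81 ± 0.20) and Sgk1 (-0.85 ± 0.22), with limma adjusted p from 0.0063 to 0.0468, or 7.5% of 40 against 1.42% of all genes. With the platelet covariate Bcl6 and Sgk1 passed and Cdkn1a did not. With median centring of the arrays 0 of all genes passed for refeeding in cafeteria rats, so none of these genes did. Sgk1 averaged -0.36 ± 0.41 in refed and 0.49 ± 0.46 in fasted cafeteria rats, and Cdkn1a -0.18 ± 0.17 and 0.63 ± 0.44 (SD, n = 5 each). In control rats 3 genes of the list rose and 6 fell with refeeding (22.5% of 40, against 9.34% of all genes), among them the adaptor protein Ywhaz (-0.94 ± 0.20), the kinase Stk4 (-0.73 ± 0.17), the mitochondrial dismutase Sod2 (-1.24 ± 0.29) and Gadd45a (-0.51 ± 0.12), with Bcl6 higher (0.88 ± 0.15). All 8 platelet markers fell in the same comparison, and with the mean of the platelet markers entered as a covariate none of the 3 lists had a gene past the threshold there; 7 of all genes did.

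In the insulin and IGF list, Trib2, a pseudokinase known in human melanoma cells to restrain FOXO, rose with fasting in cafeteria rats (0.66 ± 0.16, limma adjusted p = 0.0477), 1 of 39 genes or 2.56%, against 0.859% of all genes. With median centring of the arrays 0 of all genes passed for fasting in cafeteria rats, so Trib2 did not. Extraction run or slide as a fixed term left 22 and 1 of all genes past the threshold. In control rats the change of Trib2 was 0.52 ± 0.17 (adjusted p = 0.205 in limma), and 0 of 39 passed, against 0.177% of all genes. In control rats 4 of 39 were lower after refeeding, 10.3% and so near the 9.34% of all genes that passed, among them the kinase Gsk3b (-0.53 ± 0.13), the translation repressor Eif4ebp1 (-0.57 ± 0.15) and the adaptor Grb2 (-0.51 ± 0.16), with limma adjusted p from 0.00959 to 0.0468 for these; in cafeteria rats 0 of 39 passed, against 1.42% of all genes. In the leptin and JAK-STAT list, 0 of 20 passed with fasting in either diet (against 0.859% of all genes in cafeteria and 0.177% in control rats), where Socs3, the feedback inhibitor of leptin receptor signalling, had 0.42 ± 0.12 in cafeteria rats (limma adjusted p = 0.0871). Averaged over both diets, Socs3 rose with fasting (0.33 ± 0.086, limma adjusted p = 0.0279) and fell with refeeding (-0.26 ± 0.084, 0.0412). It was 1 of 2 list genes, of 20, that passed for fasting (10%, against 4.11% of all genes) and 1 of 6 for refeeding (30%, against 13.5%). All 8 platelet markers fell in the averaged refeeding comparison, and with the platelet covariate Socs3 passed for fasting and not for refeeding. With refeeding in control rats 1 of 20 rose, the STAT3 inhibitor Pias3 (0.27 ± 0.087), and 3 fell, the phosphatase gene Ptpn11 (-1.15 ± 0.22), Leprot (-0.62 ± 0.13), which in mouse and human shares its gene locus with Lepr and whose product limits leptin receptor at the cell surface, and the receptor-bound kinase Jak2 (-0.41 ± 0.088), together 20% of 20 against 9.34% of all genes. These changes too stood beside the fall of the platelet markers.

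Diet differences passed for some genes of the lists. Of the leptin and JAK-STAT genes, 3 of 20 were lower in cafeteria than in control rats over the 3 feeding states (15.0%, against 3.24% of all genes). Ptpn11 differed by -1.14 ± 0.13, the receptor kinase Jak1 by -0.55 ± 0.066 and Leprot by -0.54 ± 0.076, with limma adjusted p of 8.62e-06, 2e-05 and 0.000107. In fasted rats Leprot averaged -0.55 ± 0.19 on the cafeteria diet and 0.30 ± 0.088 on chow (SD, n = 5 each). Of the insulin and IGF list, 3 of 39 were lower, among them the adaptor Shc1 (-0.35 ± 0.076, limma adjusted p = 0.00576) and the insulin-degrading enzyme Ide (-0.21 ± 0.050), and 1 was higher, the Akt phosphatase Phlpp1 (0.20 ± 0.056). Together they were 10.3% of 39, against 3.24% of all genes. Of the FOXO list, the antioxidant enzyme Cat was higher (0.23 ± 0.054), and Ywhab (-0.32 ± 0.059), a member of the protein family that holds FOXO in the cytoplasm, and the deubiquitinase Usp7 (-0.55 ± 0.13) were lower. These were 7.5% of 40, against 3.24% of all genes. The list medians were -0.012, -0.0060 and 0.032 for insulin, leptin and FOXO, against 0.0087 over all genes. The platelet and erythroid marker means differed by -0.23 and 0.58, with 0 of 8 and 1 of 6 markers past the threshold; with the platelet covariate Ptpn11, Jak1 and Leprot again passed.

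The genes whose log2 ratios over the 29 arrays were most like those of each measured gene were taken from 11139 genes with a symbol, by Pearson's r, which includes differences between groups and any factor shared by the arrays. For Irs2 they were Cdadc1 (0.889), Pcgf3 (0.885) and Rasd1 (0.879), and for Pik3r1 Zfand2a (0.850), Hspa5 (0.830) and Nr4a2 (0.826). For Akt1 they were Qars1 (0.895), Naa12 (0.875) and Clptm1 (0.872), and for Akt2 Csnk1d (0.792), Atg7 (0.785) and Clptm1 (0.773), so that Clptm1 stood in both. Foxo1 had Zbtb33 (0.836), Arid5b (0.829) and Pi4k2a (0.813), and Foxo3 had Ano6 (0.777), Lyl1 (0.764) and Itgb3 (0.747), the last of them a platelet marker. As deviations from group means, Foxo3 and the platelet marker mean had r = 0.316, which did not pass (adjusted permutation p = 0.349). Igf1r had Hspbp1 (0.719), Mark2 (0.710) and Tmcc2 (0.706), and Insr had Stam2 (0.644), Plekhm2 (0.613) and Hoxb6 (0.589). These are descriptions of the 29 arrays.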

How the data were processed

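Each sample's scanner file, from Agilent Feature Extraction 9.5.1.1 per the file headers, holds Cy5 and Cy3 intensity values per spot, in which Cy5 is the rat and Cy3 the pool per the labels. Control spots and outlier-flagged spots were left out. With limma 3.58.1 in R 4.3.3, intensities were background-corrected (normexp, offset 50) and normalized within arrays (loess). Spots of 1 probe were averaged, and probes well above background in Cy5 on at least 4 of 29 arrays were kept (28193 of 41012). The brightest probe stood for its gene, which left 24226 genes, 11260 of them with a symbol. Symbols came from the files and a RefSeq table of GRCr8. The symbols of 148 probes were set aside because the probe and the gene were placed on different chromosomes. The number of rats limits the precision, with 23 residual degrees of freedom, and no dye swap was made, so a dye effect common to all arrays cancels only in differences between groups.

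A linear model of the 6 groups with no covariate was fitted to all genes, with moderated 2-sided tests and Benjamini-Hochberg adjustment over all genes in each comparison. The rats are separate animals. The 10 genes, the pathway lists and the marker lists were chosen with earlier results of these data known. Named pathway genes are those that passed (at most 6 per list and comparison, smallest p first) or else the 2 with the smallest p, and the text gives some of them; a few list genes are not reported here. The comparisons averaged over both diets, the slide as a fixed term, the platelet covariate for the lists and the separate Irs2 probes from processed signals were added after the data had been seen. The procedure was tested on simulated data. Correlations used deviations from group means and 100000 permutations within groups.

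The authors' deposited table holds normalized Cy5 signals on a log2 scale, 20201 values per array, with slopes of 0.986 to 1.02 against the log2 scanner signals. Its column medians were 9.45, 9.61, 9.55, 9.55 and 9.65 in cafeteria fed, then 9.64, 9.49, 9.47, 9.42 and 9.44 in cafeteria fasted, then 9.42, 9.60, 9.44, 9.52 and 9.54 in cafeteria refed, then 9.42, 9.47, 9.35 and 9.52 in control fed, then 9.34, 9.43, 9.49, 9.45 and 9.45 in control fasted, then 9.43, 9.47, 9.72, 9.64 and 9.53 in control refed rats, so the columns were not centred on a common value. Its direction follows from Cy5 being the rat, while the background correction and normalization behind it are not given in the sources used here. It covers 7 of the 10 genes. Replicate numbers are shared between the diets. Over the 14 pairs with the same number and feeding state, correlations of deviations from group means ran from -0.151 to 0.208, 2 of them over 0.1, so the numbers were not taken to pair rats.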

Additional observations from a re-analysis of the deposited data

Results flagged for a closer look

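Each of the 8 tested genes was searched in each of the 6 groups for a rat set apart from its group by Dixon's criterion, and 3 of the 48 combinations met it, where chance alone meets it in about 1 of 20 groups. Igf1r was -0.59 in cafeteria refed rat 3, against -0.077 to -0.040 in the other rats of that group. Igf1r was 0.038 in cafeteria fed rat 4, against -0.33 to -0.25 in the others. Insr was 0.22 in control fasted rat 5, against -0.087 to -0.0021, and Insr was well above background in 1 rat of that group. No change of a tested gene had all rats of 1 diet on 1 side and all rats of the other diet on the opposite side.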

How the results depend on the processing

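Under all alternatives and with each rat left out, no change of a tested gene that had passed turned its direction. Of the counts of the 8 genes that passed, 138 of 157 stayed within 1.5 times the reported count under other settings and 177 of 194 with a rat left out. Most comparisons had a reported count of 0 and stayed there, and a count can stay while the gene changes, so these shares do not measure how stable the calls were. For fasting in cafeteria rats (1 passed) the count was 0 in the authors' table, with extraction run or slide as a fixed term, with only the groups compared and with median centring; from Cy5 alone it stayed at 1 through Pik3r1 (0.37, limma adjusted p = 0.0273), where Irs2 did not pass (0.0526). For refeeding in cafeteria rats (1) it was 0 with only the groups compared and with median centring and 2 with slide as a random block, whose consensus correlation was 0.029. For refeeding in control rats (2) it was 1 from Cy5 alone and from processed signals, where the gene was Foxo3, with extraction run as a term, where it was Irs2, and with only the groups compared, where it was Pik3r1, and 0 in the authors' table, with the platelet covariate and with median centring; with slide as a fixed term the 2 genes were Irs2 and Foxo3. For the diet difference over the 3 feeding states (0) it was 2 with the platelet covariate, and for that in refed rats (0) 1 in the authors' table. With median centring it was 0 for both changes averaged over the diets (2 each), where Pik3r1 stood at 0.35 and -0.31 (limma adjusted p = 0.211 and 0.0757). With a rat left out the counts ranged from 0 to 2 for fasting in cafeteria rats, 0 to 2 and 0 to 2 for refeeding in cafeteria and control rats, and 0 to 1 for the diet difference over the 3 states, where Foxo1 passed without cafeteria fasted rat 11. The cause of these moves was not tested.

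Because the replicate numbers did not pair the rats, the replicate block was tried only as an alternative for the diet differences: 0 of the 8 genes passed in any of the 4, and over the 3 states Foxo1 was -0.24 (limma adjusted p = 0.119) and Pik3r1 -0.15 (0.125), and 3 of the 14 pairs correlated best with their own number.

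Counts over all genes moved by more than 1.5 times as follows. For cafeteria minus control, fasted they were 201 as reported, 13 from Cy5 alone, 9 in the authors' table, 318 with every probe on its own, 24 with median centring, 420 with only the groups compared, 362 with the platelet covariate and 13 from processed signals, and 62 to 364 with a rat left out. For cafeteria minus control, fed they were 2 as reported, 1 from Cy5 alone, 1 in the authors' table, 1 with every probe on its own, 1 with extraction run as a term, 0 with median centring, 1 without the filter on dim probes, 0 with only the groups compared, 6 with the platelet covariate, 0 with the replicate block and 0 with slide as a fixed term, and 0 to 3 with a rat left out. For cafeteria minus control, mean of 3 feeding states they were 785 as reported, 54 with median centring. For cafeteria minus control, refed they were 54 as reported, 113 from Cy5 alone, 291 in the authors' table, 104 with every probe on its own, 0 with median centring, 0 with only the groups compared, 118 from processed signals, 141 with the replicate block and 1 with slide as a fixed term, and 4 to 139 with a rat left out. For fasted minus fed, cafeteria they were 208 as reported, 22 with extraction run as a term, 0 with median centring, 68 with only the groups compared and 1 with slide as a fixed term, and 10 to 303 with a rat left out. For fasted minus fed, control they were 43 as reported, 3 from Cy5 alone, 1 in the authors' table, 23 with every probe on its own, 2 with median centring, 15 without the filter on dim probes, 10 with the platelet covariate, 16 from processed signals and 16 with slide as a fixed term, and 6 to 81 with a rat left out. For fasted minus fed, mean of both diets they were 995 as reported, 6 with median centring. For refed minus fasted, cafeteria they were 343 as reported, 153 from Cy5 alone, 142 in the authors' table, 0 with median centring and 86 with only the groups compared, and 74 to 523 with a rat left out. For refed minus fasted, control they were 2262 as reported, 3920 in the authors' table, 810 with median centring and 7 with the platelet covariate. For refed minus fasted, mean of both diets they were 3273 as reported, 856 with median centring and 695 with the platelet covariate. Signal over background limits the values of Insr and of the 3 dimmer Irs2 probes, and leaves Lepr and Irs1 without a level.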
